A study of Mus musculus with 4 samples.

Results

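The 36 genes described here carry fatty acids into cells, burn them in mitochondria and peroxisomes, or set the transcription of the genes that do so. They were taken from a list named for fatty acid oxidation and targets of PPAR, the peroxisome proliferator-activated receptor family, and are 36 of the 27998 genes measured. Kidney cells came from male C57BL/6 mice, 6 to 8 weeks old, that received glyoxylate by intraperitoneal injection on 0, 1, 4 or 7 successive days (D0, D1, D4 and D7). Glyoxylate is a metabolic precursor of oxalate and is used to produce calcium oxalate nephropathy. Each day is 1 droplet single-cell library, no genetic change is named, and neither the dose nor what D0 mice received is given in the labels. The values are counts of unique molecular identifiers (UMIs), which count captured transcripts.

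The proximal tubule reabsorbs most of the filtered glucose, amino acids and phosphate and draws its energy largely from fatty acids. Long-chain acyl groups enter mitochondria through the carnitine shuttle and are shortened by beta-oxidation, while peroxisomes shorten very long, branched and dicarboxylic chains. PPAR alpha, encoded by Ppara, is the nuclear receptor that drives many of these genes in liver and kidney, and PGC-1 alpha, encoded by Ppargc1a, is its coactivator.

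Proximal tubule cells were cells with at least 2 UMIs of Lrp2 and Slc34a1 together, no Ptprc UMI and at most 50% mitochondrial UMIs. Lrp2 encodes the endocytic receptor megalin, Slc34a1 a phosphate transporter and Ptprc the leukocyte antigen CD45. The gate held 11751, 7635, 15040 and 12625 of 16426, 12730, 16427 and 15087 barcodes at D0, D1, D4 and D7. All 10 proximal tubule markers were detected in it on every day, at a summed 21352, 20041, 20211 and 19157 CPM, which are UMIs scaled to 1000000 UMIs of the gated cells of a library. All 8 phagocyte markers were detected too, at a summed 68.6, 86.3, 140 and 208 CPM, and all 6 thick ascending limb markers, at 376 to 433 CPM. Of 4 adipocyte markers 1 was detected on each day, with 1 or 2 UMIs. The part of these in the results was not tested. Median depth of the gated cells lay between 5014 and 6976 UMIs, and the median mitochondrial share was lowest at D1, at 11.1% against 16.6 to 18.0% on the other days. The lowest depth of a deposited cell was 500 UMIs in the D0 and D1 libraries, 2919 in D4 and 2773 in D7. Library pairs shared 50 to 81 cell barcodes. With 1 library per day there is no replicate, so no test between days was made, and 95% intervals cover counting error only. In a summed level, fewer cells with a transcript and less of it per cell cannot be told apart.

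Hadha and Hadhb encode the alpha and beta subunits of the mitochondrial trifunctional protein, which catalyses the last steps of beta-oxidation on long chains. They lie head to head on chromosome 5, and the stretch between them is shown because both subunits can be read against it. Hadha is annotated at chr5:30118304-30155162 on the minus strand and Hadhb at chr5:30155248-30184593 on the plus strand in GENCODE M21. The 85 bases between them, at chr5:30155163-30155247, read 5′ to 3′ on the plus strand from the RefSeq table for GRCm38.p6.
Hadha-Hadhb: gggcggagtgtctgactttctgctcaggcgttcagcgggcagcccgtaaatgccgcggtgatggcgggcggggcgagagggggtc
Hadha stood at 74.2, 93.6, 73.0 and 69.1 CPM at D0, D1, D4 and D7. Hadhb stood at 109, 127, 99.6 and 96.7 CPM, so both were highest at D1 and lowest at D7.

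PPAR alpha binds a direct repeat of AGGTCA spaced by 1 base (DR1, searched as AGGTCANAGGTCA on both strands). The RefSeq table held 31 promoters for 30 of the 36 genes, each from 250 bases before to 50 after the start. None held the repeat with at most 1 mismatch, against 0.554% of 32851 promoters of that length. With at most 2 mismatches, 3 of 31 did (9.68%, against 3.86% of all). These 3 sequences are shown because they are the closest to the receptor's element among the genes, with the matched bases in capitals.
Cd36: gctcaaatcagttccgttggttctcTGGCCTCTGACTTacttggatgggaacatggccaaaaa
Etfa: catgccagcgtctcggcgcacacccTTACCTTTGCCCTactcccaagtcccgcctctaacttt
Slc25a20: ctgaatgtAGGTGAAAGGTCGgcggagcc
The Cd36 stretch lies at chr5:17835922-17835984 on the minus strand and its match covers positions -63 to -51 from the start, read on the opposite strand. This RefSeq start lies inside the gene as annotated in GENCODE M21, at chr5:17781690-17888801. Etfa is shown from chr9:55512283-55512345 on the minus strand, with the match at -77 to -65 on the opposite strand. Slc25a20 is shown from chr9:108662134-108662162 on the plus strand, with the match at 7 to 19 on the same strand. At D7 Cd36 and Etfa stood at 0.873 and 0.822 of D0 and Slc25a20 stood above D0 (34.7 and 27.7 CPM), so the 3 genes did not share a direction. A match is a description of letters, and binding was not measured.

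Most of the fatty acid oxidation genes stayed within 1.5-fold of D0 in the proximal tubule over the week. A gene was called higher or lower when its CPM plus 1 differed at least 1.5-fold between days. Calls needed 50 UMIs over both libraries, and all 36 genes had them. At D1, 1 of 36 was higher than at D0 (Acot1) and none lower, against 1.62% and 0.717% of 12421 genes tested. At D4 none was higher and 4 were lower (Lpl, Fabp3, Amacr and Agps), against 4.49% and 1.01% of 12733 genes. At D7, 1 was higher (Acot1) and 3 were lower (Lpl, Amacr and Agps), against 7.24% and 1.62% of 12781 genes. Among the 4582 genes with a mean of at least 20 CPM, a set that holds all 36, the shares called higher at D1, D4 and D7 were 1, 2.18 and 3.4%, and those called lower 0.633, 0.808 and 1.35%. From D4 to D7 none of the 36 passed 1.5-fold in either direction, against 1.37% higher and 0.364% lower of all genes.

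The median log2 ratio to D0 over the 36 genes was 0.20 at D1, -0.06 at D4 and -0.09 at D7, beside 0.08, 0.02 and 0.06 over all genes tested. Above 0 were 29, 10 and 15 of the 36, beside 64.5, 55.2 and 61.4% of all genes tested. Scaling by trimmed means (TMM) moved all ratios to D0 by -0.11, -0.04 and -0.09. Then 24, 7 and 3 of the 36 were above 0, beside 48.1, 48.3 and 47.3% of all genes.

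**Figure D1:**
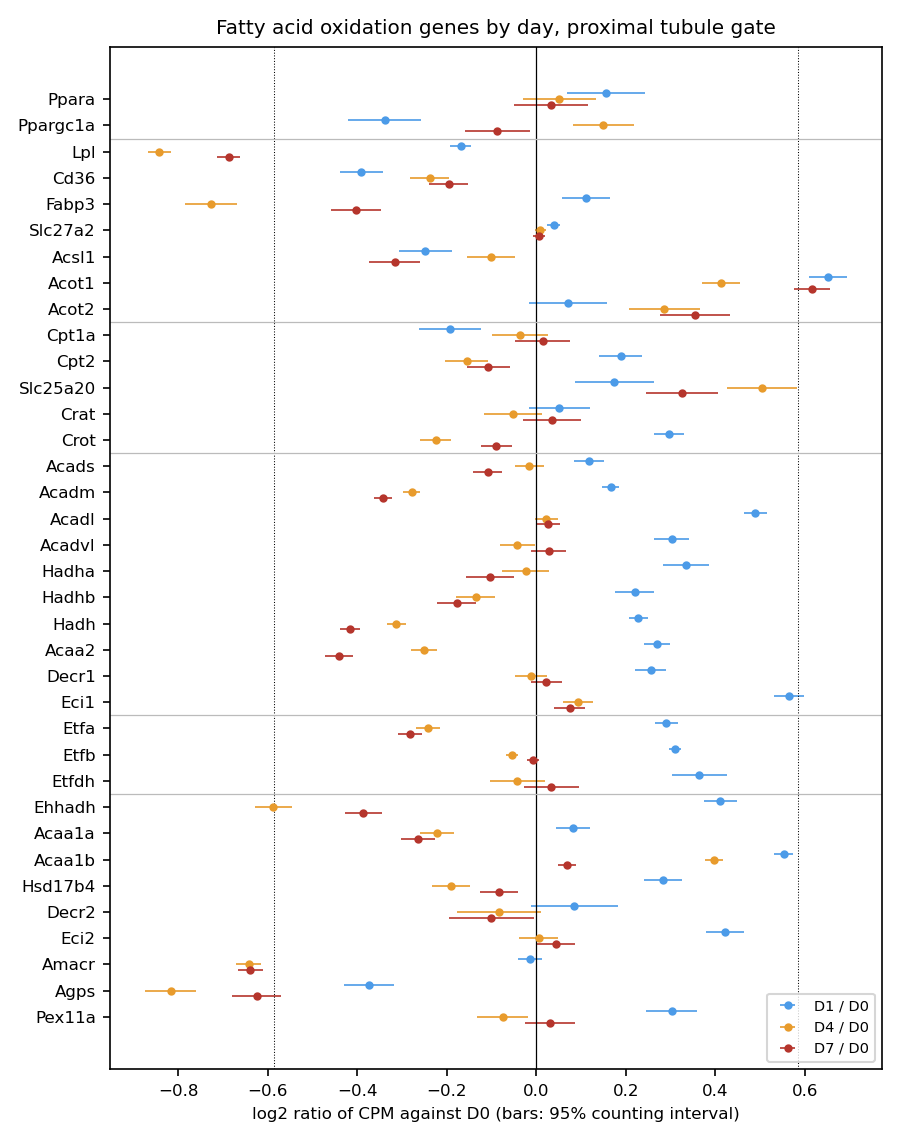
Log2 ratio of CPM against D0 for each of the 36 genes (x axis; rows grouped by role) at D1, D4 and D7 in the proximal tubule gate, with 95% counting intervals; dotted lines mark 1.5-fold. Acot1 sits to the right at D1 and D7, Lpl, Amacr and Agps sit to the left at D4 and D7, and most enzymes lie right of 0 at D1.

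Both regulators stayed within 1.5-fold of D0. Ppara stood at 28.8, 32.1, 29.9 and 29.5 CPM at D0, D1, D4 and D7, and its D7 level was 1.02 (0.966 to 1.08) times that at D0. Ppargc1a stood at 39.7, 31.4, 44.1 and 37.4 CPM. It was lowest at D1, at 0.791 (0.748 to 0.837) of D0, and highest at D4. Among their partners, Rxra, the obligate partner of the PPARs on DNA, ranged from 27.4 to 28.6 CPM and Hnf4a, a nuclear receptor of the proximal tubule, from 175 to 192 CPM.

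Of the 7 genes of uptake, binding and activation, 2 were called lower at D4 and 1 at D7, and 1 was called higher at D1 and D7. Lipoprotein lipase, encoded by Lpl, frees fatty acids from circulating triglyceride. Lpl stood at 406, 361, 226 and 252 CPM, with D4 at 0.558 (0.548 to 0.568) and D7 at 0.621 (0.61 to 0.632) of D0. Both late libraries were thus below both early ones. Without cells that held markers of another class, Lpl was short of a call at D7, at a log2 ratio of -0.49. That alternative leaves out most gated cells of every day, 7720 of 12625 at D7. Fabp3, a cytosolic fatty acid carrier, stood at 75.9, 82.0, 45.9 and 57.4 CPM, at 0.604 (0.58 to 0.629) of D0 at D4 and 0.757 at D7. Fabp3 shares 24.0% of the 60-base windows of its last 500 transcript bases with its pseudogene Fabp3-ps1, so its count is less certain. It was called lower at D7 as well without cells that held markers of another class, at a log2 ratio of -0.62.

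Acot1 hydrolyses long-chain acyl-CoA in the cytosol and is a textbook PPAR alpha target. Acot1 stood at 98.8, 155, 132 and 151 CPM, at 1.57 (1.52 to 1.62), 1.33 and 1.53 (1.49 to 1.58) times D0. It was above D0 on all 3 days of glyoxylate. A ratio of 1.5 is 0.58 on the log2 scale. The D1 call was lost with TMM (log2 ratio 0.54), without mitochondrial genes in the total (0.55), with the mean of cells' shares (0.54) and without cells that held markers of another class (0.50). The D7 call was lost with TMM (0.52), with at most 25% mitochondrial UMIs (0.51) and with a pseudocount of 10 (0.57). Acot2, the mitochondrial form, stood at 29.1, 30.6, 35.5 and 37.3 CPM. Acot1 and Acot2 shared no 60-base window, so the 2 counts are separate. Acsl1, which couples fatty acids to coenzyme A, stood at 70.4, 59.3, 65.6 and 56.5 CPM, lowest at D7 at 0.803 (0.772 to 0.835) of D0. Cd36, a membrane fatty acid translocase, stood at 114, 87.2, 96.9 and 99.8 CPM and was highest at D0. Slc27a2, a fatty acid transporter and very-long-chain acyl-CoA synthetase, ranged from 1161 to 1193 CPM.

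None of the 5 carnitine shuttle genes was called on any day. Cpt1a, the outer-membrane carnitine palmitoyltransferase that limits the rate of entry, stood at 51.8, 45.3, 50.5 and 52.3 CPM. Its D7 level was 1.01 (0.967 to 1.05) times that at D0. Cpt2, the inner-membrane enzyme, stood at 89.9, 102, 80.7 and 83.5 CPM. Slc25a20, the carrier that exchanges acylcarnitine for carnitine, stood at 27.7, 31.3, 39.3 and 34.7 CPM, at 1.42 (1.34 to 1.5) times D0 at D4. It was the highest of the shuttle genes relative to D0 at D4 and D7. Crot, the peroxisomal carnitine octanoyltransferase, stood at 169, 208, 145 and 159 CPM, and Crat, the acetyltransferase, ranged from 45.3 to 48.7 CPM.

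All 10 genes of the mitochondrial beta-oxidation spiral were above D0 at D1, beside 64.5% of all genes tested. The same held for 10 of 10 with TMM and with mitochondrial genes left out of the total, beside 48.1 and 50.3% of all genes. The median log2 ratio of the 10 was 0.26, beside 0.08 over all genes and 0.13 over genes of at least 20 CPM, and none reached 1.5-fold. Without cells that held markers of another class the median was 0.17, beside 0.08 over all genes, with 10 of 10 still above D0. Eci1, which isomerises the double bonds of unsaturated chains, stood at 161, 239, 172 and 170 CPM, at 1.48 (1.44 to 1.51) times D0 at D1. Acadl, the long-chain dehydrogenase, stood at 296, 416, 301 and 302 CPM, at 1.4 (1.38 to 1.43) times D0 at D1. Both were at D1 alone above a level held on the other 3 days.

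At D7 the spiral's genes divided, with 4 of 10 above D0 and none with TMM. Acadm, the medium-chain dehydrogenase, stood at 587, 659, 484 and 463 CPM, and D7 was 0.789 (0.778 to 0.8) of D0. Hadh, the dehydrogenase for medium and short chains, stood at 458, 536, 369 and 343 CPM, and D7 was 0.75 (0.738 to 0.761) of D0. Acaa2, the thiolase that ends the spiral, stood at 244, 294, 205 and 180 CPM, and D7 was 0.737 (0.721 to 0.753) of D0. In these 3 genes D1 was the highest library and D7 the lowest. Acadvl, Decr1 and Eci1, for very long and unsaturated chains, lay between 1.02 and 1.05 times D0 at D7.

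Electron-transferring flavoprotein takes electrons from the acyl-CoA dehydrogenases and passes them to ubiquinone through Etfdh. Etfa stood at 306, 375, 259 and 252 CPM. Etfb stood at 1075, 1333, 1036 and 1070 CPM, and 47.6% of its last windows are shared with the overlapping model Gm45233. Etfdh stood at 53.2, 68.4, 51.7 and 54.5 CPM. All 3 were above D0 at D1, at 1.22, 1.24 and 1.29 times, also with TMM. At D7 Etfa was 0.822 (0.807 to 0.838) of D0, while Etfb and Etfdh were 0.995 and 1.02 times.

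Of the 9 peroxisomal and ether lipid genes, none was called at D1 and 2 were called lower at D4 and D7. Amacr, a racemase that prepares branched chains and bile acid precursors for beta-oxidation in peroxisomes and mitochondria, stood at 321, 318, 206 and 206 CPM. Agps, which forms the ether bond of plasmalogens, stood at 85.8, 66.2, 48.7 and 55.7 CPM. In Amacr D1 was with D0 and D7 was 0.642 (0.63 to 0.655) of D0, whereas Agps was already at 0.772 (0.742 to 0.802) at D1 and at 0.649 (0.625 to 0.674) at D7. Without cells that held markers of another class, Amacr was short of a call at D4 and D7 (log2 ratios -0.55 and -0.51), while Agps was still called at D7 (-0.65). Ehhadh, the bifunctional enzyme of dicarboxylic chains and a PPAR alpha target, stood at 139, 184, 92.3 and 106 CPM. It was 1.33 (1.3 to 1.36) times D0 at D1 and 0.666 (0.647 to 0.685) of D0 at D4, at the limit of a call. Acaa1b, a thiolase, stood at 448, 656, 589 and 469 CPM and was highest at D1. It shares 35.1% of its last windows with Acaa1a, so the split between these copies is uncertain. The other genes of the group (Acaa1a, Hsd17b4, Decr2, Eci2 and Pex11a) lay between 0.833 and 1.03 times D0 at D7.

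Mitochondrial and peroxisomal enzymes followed a like course at D1. Crat, Eci2 and Amacr, which work in both organelles, were left out of this comparison, which leaves 17 mitochondrial and 8 peroxisomal genes. Median log2 ratios to D0 at D1 were 0.25 in the mitochondrial and 0.29 in the peroxisomal genes. Above 0 were 16 of 17 and 7 of 8 (15 and 5 with TMM), beside 64.5% of all genes (48.1% with TMM). At D4 the medians were -0.04 and -0.20, with 13 of 17 and 7 of 8 below 0, beside 44.8% of all genes. At D7 they were -0.01 and -0.09, a difference of 0.09, which was 0.20 without cells that held markers of another class. The mitochondrial genes spread on both sides of 0 at D7, with 8 of 17 above it (2 with TMM), beside 61.4% of all genes (47.3% with TMM). The lowest peroxisomal gene was Agps.

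**Figure D2:**
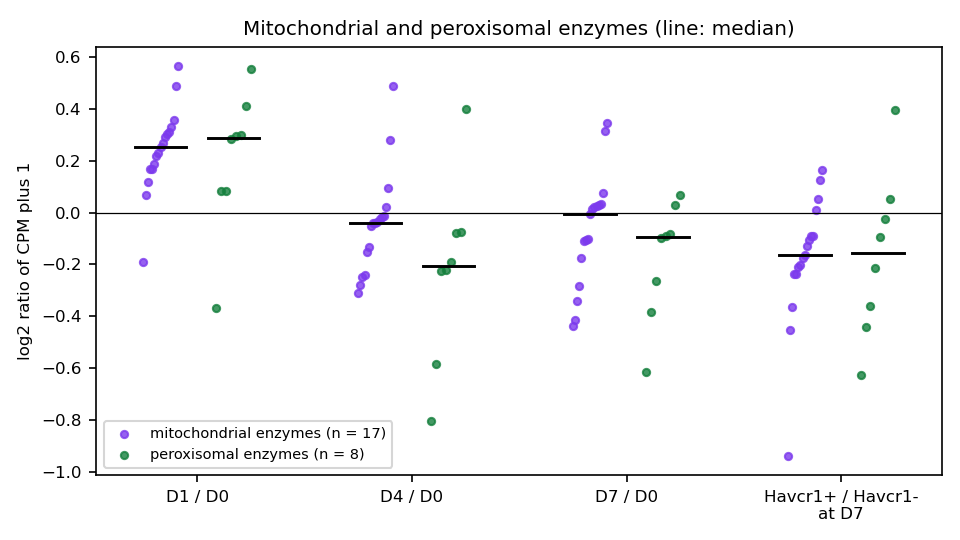
Log2 ratio of CPM plus 1 for 17 mitochondrial and 8 peroxisomal enzymes (points; black line, median), for D1, D4 and D7 against D0 and for Havcr1-positive against negative cells at D7. Medians at D1 are 0.25 and 0.29, and at D4 the peroxisomal median, -0.20, lies below the mitochondrial one, -0.04.

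The segment of the tubule separated these genes far more than the day did, as it did genes in general. Cells were placed by Slc5a2 and Slc5a12 (at least 2 UMIs together), glucose and lactate transporters of the early convoluted part, by Slc7a13 (at least 3), an amino acid transporter of the straight part, or by Serpina1d and Serpina1f (at least 2). At D0 these gates held 3318, 3470 and 135 cells. Of the 135 Serpina1 cells, 120 were in the Slc7a13 gate as well, and 263 cells were in both the Slc5a2/Slc5a12 (S1) gate and the Slc7a13 gate. Median depth was 6213 UMIs in the S1 gate and 9540 in the Slc7a13 gate at D0. The S1 gate took 24.5 to 29.9% and the Slc7a13 gate 25.6 to 29.5% of gated cells over the 4 days.

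At D0, 15 of 36 genes were higher and 4 lower in the Slc7a13 gate than in the S1 gate, against 6.27% and 12.9% of 11046 genes tested (6.99 and 8.16% of genes of at least 20 CPM). The median log2 ratio was 0.32, beside -0.15 over all genes. By day, 2.33, 5.5 and 8.86% of all genes were called in either direction at D1, D4 and D7 against D0. Between the gates, uptake genes differed most. Cd36 was 29.4 CPM in the S1 gate and 203 in the Slc7a13 gate, a ratio of 6.91 (6.4 to 7.46). Lpl was 151 and 678 CPM, a ratio of 4.49 (4.34 to 4.65), and Slc27a2 was 611 and 1812 CPM. In the opposite direction, Fabp3 was 144 and 18.2 CPM, a ratio of 0.126 (0.116 to 0.137), and Acsl1 was 115 and 41.9 CPM. Genes of uptake and activation thus differed between the gates in both directions.

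The median log2 ratio of this contrast at D0 was 1.01 over the 8 peroxisomal and 0.22 over the 17 mitochondrial genes. Of the peroxisomal genes 5 were called higher and 3 were not: Hsd17b4, at 96.2 and 116 CPM in the S1 and Slc7a13 gates, Acaa1a, at 169 and 121 CPM, and Decr2, at 25.3 and 21.2 CPM. Agps was 31.9 CPM in the S1 gate and 126 in the Slc7a13 gate, a ratio of 3.95 (3.66 to 4.26). Crot was 86.6 and 244 CPM, Ehhadh 74.9 and 192 CPM, and Acaa1b 240 and 555 CPM. Among mitochondrial enzymes Acadm (1.92), Acadl (2.04), Cpt2 (1.66) and Acads (1.58) were higher in the Slc7a13 gate. Acaa2, the terminal thiolase of the same spiral, was lower there, at 380 and 111 CPM, a ratio of 0.291 (0.28 to 0.302). Ppargc1a was also lower, at 61.2 and 31.2 CPM, whereas Ppara did not pass 1.5-fold, at 35.4 and 26.0 CPM. The order of medians held on the other days, at 1.20 and 0.35 at D1, 0.79 and 0.20 at D4, and 0.78 and 0.22 at D7.

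The Serpina1 gate carried the same direction further for several genes. At D0, 14 of 36 were higher and 6 lower there than in the S1 gate, against 8.34% and 31.5% of 10258 genes (8.84 and 23% at 20 CPM or more). Acadm was 1920 CPM, 5.19 (4.98 to 5.41) times its S1 level, and Crot was 618 CPM, 7.13 (6.6 to 7.7) times. Cd36 was 344 CPM. Acaa2 was 30.2 CPM, 0.0794 (0.0583 to 0.106) of its S1 level, and Fabp3 was 10.3 CPM from 16 UMIs.

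**Figure D3:**
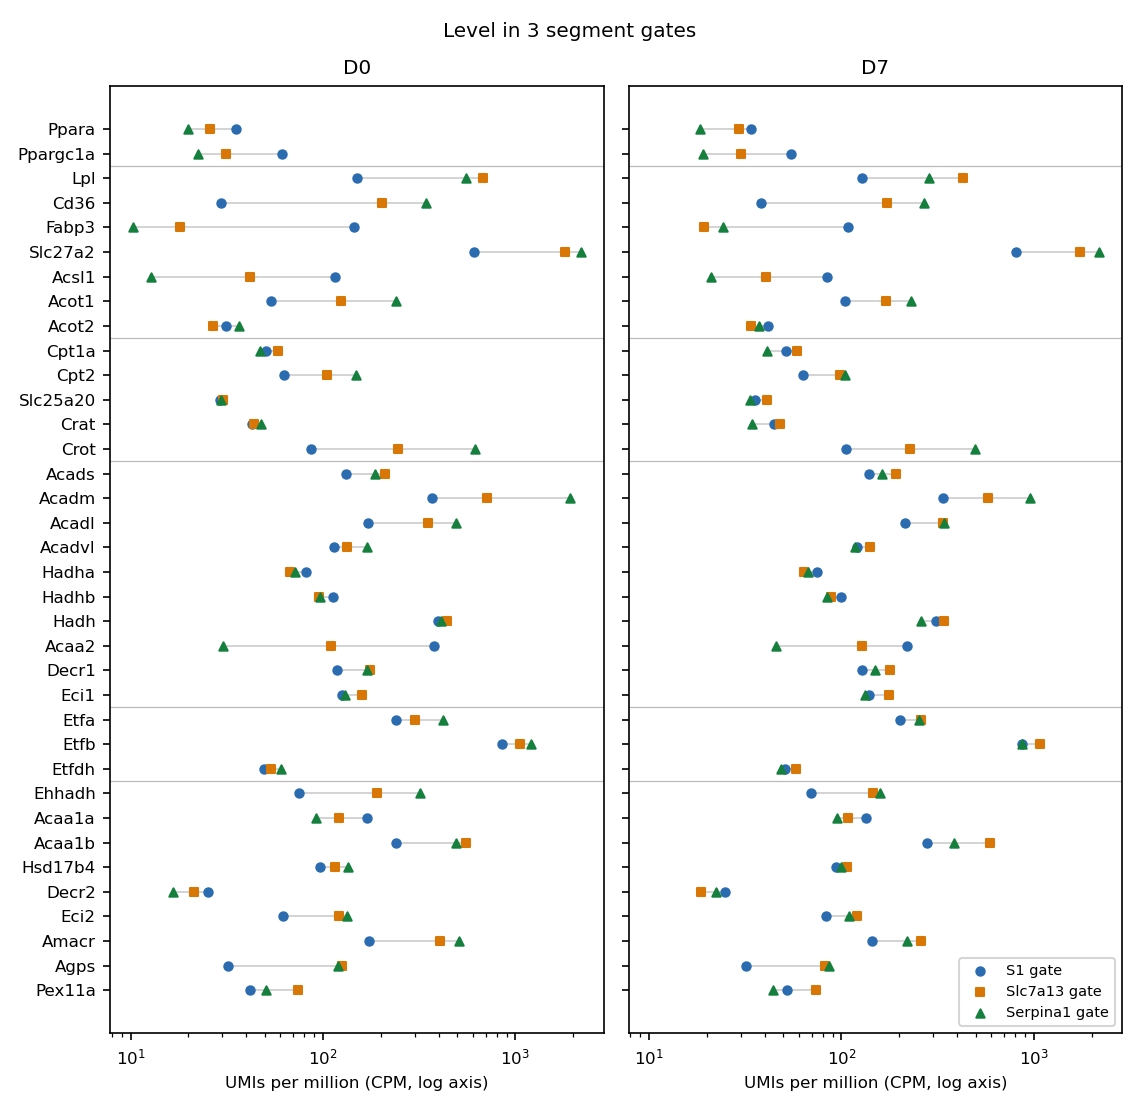
Level in CPM (log axis) of the 36 genes in the S1, Slc7a13 and Serpina1 gates at D0 (left) and D7 (right); grey lines join the gates of a gene. Cd36, Lpl, Crot and Agps lie to the left in the S1 gate, Fabp3, Acsl1 and Acaa2 lie to the right in it, and the D7 lines are shorter for most genes.

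The segment contrast was smaller at D7. All 19 genes called between the Slc7a13 and S1 gates at D0 kept their sign and had a smaller log2 ratio at D7, and their median absolute log2 ratio went from 1.22 to 0.84. Among the 694 genes of at least 20 CPM called at D0, 92.2% had a smaller ratio and 99.6% the same sign, with a median of 0.90 at D0 and 0.69 at D7. The share among fatty acid oxidation genes was thus near that of other segment genes, and both sets were chosen by their ratio at D0. At D7, 12 genes were still higher and 4 lower in the Slc7a13 gate, against 3.93% and 10.3% of genes (4.23 and 6.07% at 20 CPM or more). Cd36 was then 38.0 and 174 CPM, Agps 32.1 and 82.0 CPM, and Acaa2 219 and 129 CPM.

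Within a gate, the days differed in different genes. In the S1 gate at D7, Acot1 was higher, 53.6 CPM at D0 and 105 at D7, a ratio of 1.96 (1.83 to 2.09). Acaa2 was lower, 380 and 219 CPM, a ratio of 0.577 (0.558 to 0.597), against 6.98% and 1.65% of genes called higher and lower (3.99 and 1.18% at 20 CPM or more). In the Slc7a13 gate at D7 no gene was higher and Lpl (0.632), Amacr (0.64) and Agps (0.65) were lower, against 6.39% and 1.35% (3.47 and 0.96%). Acot1 there was 124, 196, 157 and 171 CPM over the 4 days and Acaa2 was 111, 155, 136 and 129 CPM, both with D1 as the highest library. At D4 the S1 gate held more Acot1 (1.61) and Acaa1b (1.51) and less Fabp3 (0.626) than at D0, against 4.28% and 0.63% of genes (2.84 and 0.349% at 20 CPM or more). The Slc7a13 gate held more Acot1 (1.58) and Acaa1b (1.57) at D1, against 1.97% higher and 0.815% lower (1.22 and 0.677%). At D4 it held less Lpl (0.481), Ehhadh (0.636), Amacr (0.603) and Agps (0.551), against 5.17% and 1.19% (2.75 and 0.895%). Lpl in the S1 gate was 151, 145, 127 and 129 CPM, so it was called lower in the late libraries in the Slc7a13 gate, where it was high at D0, and not in the S1 gate. The difference between the gates was not tested.

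In the Serpina1 gate at D7, 2 genes were higher and 6 lower than at D0, against 15.3% and 4.57% of 6220 genes (12.1 and 4.16% at 20 CPM or more). The lower ones were Lpl, Acadm, Hadh, Etfa, Ehhadh and Amacr. Acadm was 1920 CPM at D0, 934 at D4 and 961 at D7, a D7 ratio of 0.501 (0.476 to 0.527). Ehhadh was 318, 128 and 158 CPM, and Amacr 507, 222 and 218 CPM. Both late libraries were below D0 in these 3 genes. The D1 library held 46 such cells and is not described. The gate also differed in Havcr1, at 0.642 CPM at D0 and 107 at D7, against 10.1 and 7.51 CPM in the S1 and Slc7a13 gates at D7. The part of this and of the number of cells in the gate (135 at D0, 326 at D7) in those ratios was not tested.

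Havcr1 encodes kidney injury molecule 1, which injured proximal tubule cells express. A Havcr1 UMI was present in 8, 108, 460 and 580 gated cells, or 0.0681, 1.41, 3.06 and 4.59% of them. At D7 the share was 3.19% (0.663 to 9.04) in 94 thick ascending limb cells with a median of 4839 UMIs, and 2.91% (1.08 to 6.23) in 206 phagocytes with 3689.5, beside 4.59% (4.24 to 4.97) with 5685 in the gate. The intervals of both other cell types hold the share in the gate, and whether their Havcr1 UMIs are background was not tested. Gated cells with 1 Havcr1 UMI therefore cannot be told from background. Cells with at least 2 UMIs (0, 50, 192 and 240) are given as well. D0, with 8 cells, was not compared.

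At D7 Havcr1-positive cells held less of 3 of the 36 genes than negative cells and more of none, against 4.66% and 9.7% of all genes called lower and higher. Among genes of at least 20 CPM, the set nearer to the 36 in level, the shares were 3.43 and 4.15%. The median log2 ratio was -0.20, beside 0.08 over all genes, and 28 of 36 were below 0. Acaa2 was 96.3 CPM in positive and 185 in negative cells, a ratio of 0.52 (0.474 to 0.57). Amacr was 131 and 211 CPM, a ratio of 0.619 (0.571 to 0.67), and Acaa1b was 310 and 480 CPM, a ratio of 0.647 (0.614 to 0.681). Acsl1 (0.666), Lpl (0.675) and Etfb (0.73) were short of a call. Cd36 went the other way, at 142 and 97.1 CPM, a ratio of 1.47 (1.35 to 1.58), as did Crot at 206 and 156 CPM. Ppara was 22.1 and 29.9 CPM, while Cpt1a was 58.3 and 51.9 CPM, a ratio of 1.12 (0.992 to 1.27).

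With at least 2 Havcr1 UMIs, 9 of 36 genes were lower and none higher at D7, against 9.97% and 16.3% of genes (9.45 and 8.14% at 20 CPM or more). They were Ppara (0.641), Lpl (0.51), Acsl1 (0.495), Hadh (0.632), Acaa2 (0.417), Etfb (0.608), Acaa1b (0.462), Amacr (0.412) and Pex11a (0.609). The ratios of Acaa2, Acaa1b, Amacr and Lpl were lower than with 1 UMI. In these 9 are a regulator, uptake and activation genes and enzymes of both organelles.

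The other days gave overlapping names. At D4 Crot was higher (1.59, 1.48 to 1.72) and Fabp3 (0.59), Acsl1 (0.595), Acaa2 (0.547) and Amacr (0.637) were lower, against 7.8% higher and 6.87% lower of genes (3.51 and 3.97% at 20 CPM or more). At D1, in 108 positive cells, Cd36 (1.77) and Crot (1.64) were higher and Fabp3 (0.219), Acsl1 (0.464), Acaa2 (0.454) and Amacr (0.573) lower, against 10.9% higher and 12% lower of genes (5.76 and 5.13%). Fabp3, Acsl1, Acaa2 and Amacr were below 0 and Crot and Cd36 above 0 in log2 ratio on all 3 days.

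Segments differed between positive and negative cells. At D7 the S1 gate took 19.5% of positive cells and 29.9% of all gated cells, the Slc7a13 gate 22.1 and 28.7%, and the Serpina1 gate 11.7 and 2.58%. Summed proximal tubule markers were 14337 CPM in positive and 19462 in negative cells, phagocyte markers 311 and 201, and thick ascending limb markers 340 and 439. Positive cells were deeper, with medians of 7655.5 and 5617 UMIs. Within the S1 gate, 113 positive cells at D7 held more Cd36 (2.14, 1.67 to 2.71) and less Ppara (0.562, 0.336 to 0.883) and Acaa2 (0.588, 0.49 to 0.701), against 8.57% and 9.76% of genes called higher and lower (3.3 and 2.99% at 20 CPM or more). Within the Slc7a13 gate, 128 positive cells held more Crot (1.58, 1.43 to 1.73) and less Acaa2 (0.524, 0.421 to 0.646), against 9.75% and 6.42% (3.23 and 2.23%). Acaa2 was thus lower in positive cells within the S1 and Slc7a13 gates, while Amacr passed 1.5-fold in neither. Positive cells were not compared within the Serpina1 gate. At D7 242 of the 326 Serpina1 cells were also in the Slc7a13 gate and 31 were in the S1 gate. The S1 and Slc7a13 gates shared 338 cells. Acaa2 was 45.5 CPM and Crot 496 in the Serpina1 gate, against 129 and 229 in the Slc7a13 gate and 219 and 105 in the S1 gate. The part of these overlaps in the ratios of the S1 and Slc7a13 gates was not tested.

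Against all gated cells of D0, positive cells of D7 held less of 8 genes and more of none, against 7.67% and 17.2% of genes (7.75 and 10% at 20 CPM or more). These were Lpl (0.427), Fabp3 (0.568), Acsl1 (0.546), Hadh (0.59), Acaa2 (0.395), Ehhadh (0.603), Amacr (0.407) and Agps (0.639). Negative cells of D7 still held less Lpl (0.633), Amacr (0.657) and Agps (0.649) and more Acot1 (1.54) than D0, against 1.55% and 6.56% (1.2 and 3.19%). The 4 calls of the whole gate at D7 were therefore also made without the positive cells.

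**Figure D4:**
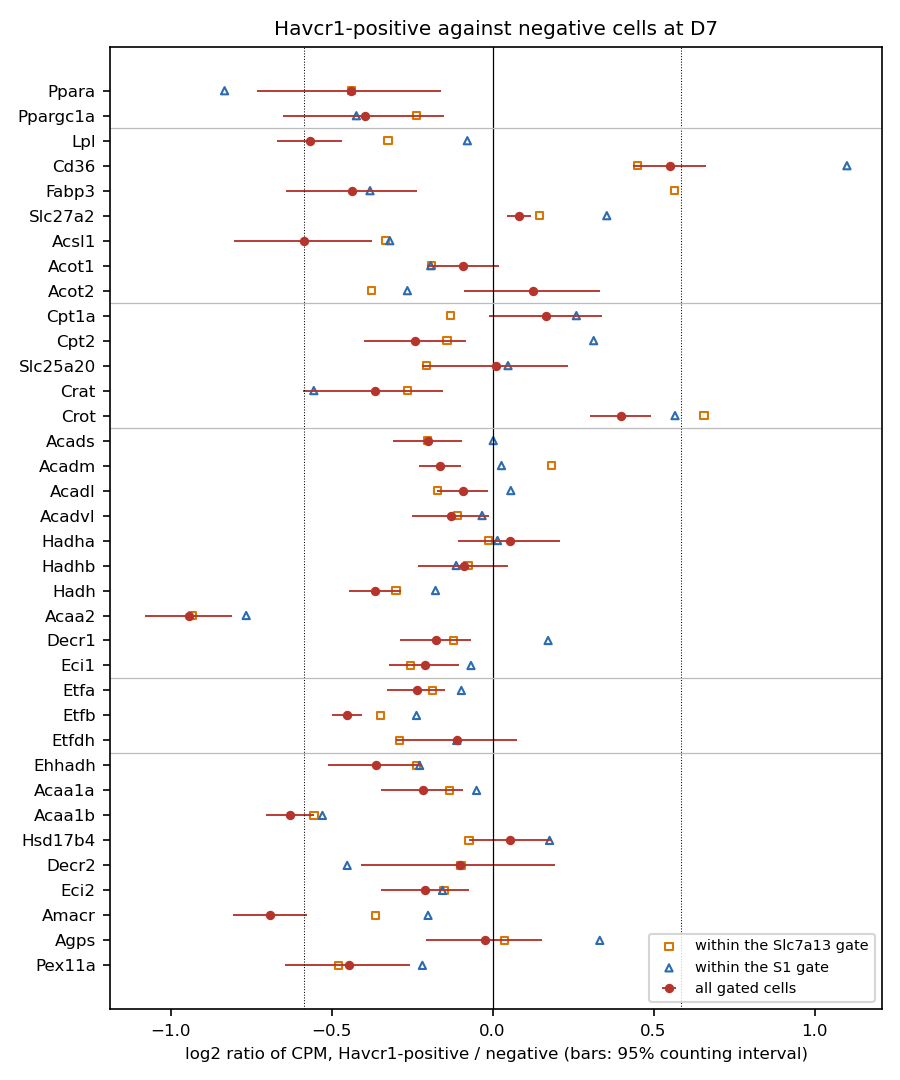
Log2 ratio of CPM in Havcr1-positive against negative cells at D7 for the 36 genes, in all gated cells (filled, with 95% counting intervals) and within the S1 and Slc7a13 gates (open triangles and squares); dotted lines mark 1.5-fold. Acaa2 lies left of the lower line in all 3, Cd36 and Crot lie right of 0, and 28 of 36 filled points are left of 0.

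Genes of the same pathways outside the 36 were read from wider lists. Of 36 other PPAR targets and nuclear receptors, 33 passed the UMI minimum, and 0, 4 and 4 were higher and 5, 2 and 3 lower than D0 at D1, D4 and D7. Over all genes tested the shares were 1.62, 4.49 and 7.24% higher and 0.717, 1.01 and 1.62% lower, the same background as for the mitochondrial and peroxisomal lists that follow. The 5 lower at D1 were Angptl4 (83.4 CPM at D0 and 50.1 at D1), G0s2 (276 and 174), Cyp4a12a (36.9 and 18.1), Nr1d1 (50.1 and 27.8) and Fabp4 (12.3 and 1.15). Most Fabp4 UMIs at D0 were in 1 cell. Cyp4a14 and Cyp4a10 encode omega-hydroxylases of fatty acids and are classical PPAR alpha targets. Cyp4a14 stood at 22.2, 20.9, 57.9 and 60.8 CPM, with D7 at 2.74 (2.59 to 2.89) times D0, and Cyp4a10 at 104, 114, 181 and 175 CPM, with D7 at 1.69 (1.64 to 1.74). Pdk4, a kinase that shuts off pyruvate oxidation, stood at 18.3, 19.8, 42.5 and 42.9 CPM, with D7 at 2.35 (2.21 to 2.5). In these 3 genes D1 was within 1.2 times D0 and both late libraries were above both early ones. The same order was seen in both main gates, with Pdk4 at 8.08 CPM at D0 and 25.3 at D7 in the S1 gate and at 29.2 and 58.6 in the Slc7a13 gate.

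Cpt1a, another established PPAR alpha target, was at 1.01 times D0 at D7 and Ehhadh at 0.765, so the targets did not share a course. Cyp4b1, a related hydroxylase, stood at 1346, 938, 1076 and 854 CPM and was lower at D7. Acsm3, in the same list, is a medium-chain acyl-CoA synthetase and stood at 185, 141, 77.3 and 77.0 CPM, with D7 at 0.417 (0.405 to 0.429) of D0. Fabp4, a fatty acid carrier of adipocytes and endothelium, was listed lower, but 703 of its 980 UMIs at D0 were in 1 cell (71.7%). Vnn1, a pantetheinase and PPAR alpha target chosen after its values were seen, stood at 35.5, 40.2, 50.2 and 54.6 CPM.

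Of 18 other mitochondrial oxidation genes, 17 passed, and none was called at D1 or D4 and 1 was lower at D7. This was Acat1, a thiolase of ketone body and isoleucine metabolism, at 543, 597, 379 and 353 CPM (D7 0.649 of D0), named after its value was seen. Of 23 other peroxisomal genes, 22 passed, with 0, 1 and 1 higher and 0, 0 and 1 lower. The higher one, Pmp22 with 18, 32, 114 and 138 UMIs, encodes a myelin protein and is in the list through its name only. The lower one was Pecr, a reductase of chain elongation, at 859, 820, 601 and 572 CPM.

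**Figure D5:**
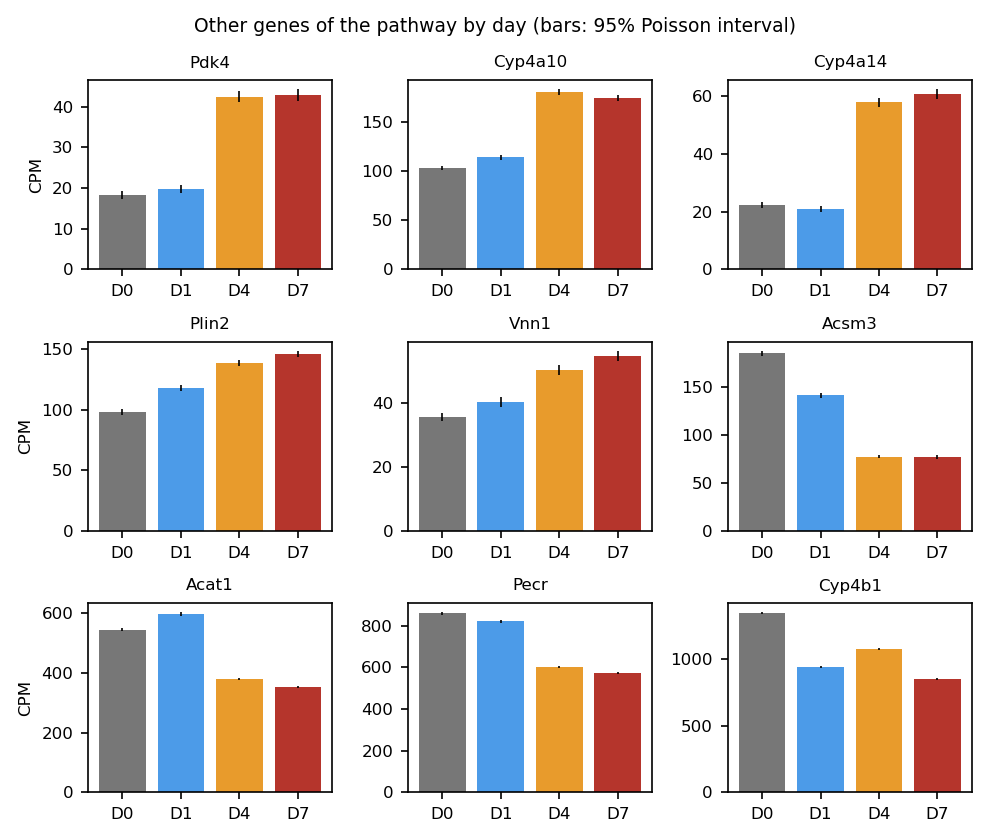
CPM in the proximal tubule gate by day for 9 genes of the same pathways outside the 36 (bars start at 0; error bars, 95% Poisson interval). Pdk4, Cyp4a10 and Cyp4a14 stand above the D0 and D1 bars at D4 and D7, Plin2 is highest at D7, and Acsm3, Acat1 and Pecr are lower at D4 and D7.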

How the data were processed

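Per the labels' protocols, kidneys were digested with trypsin and DNase and cells were run on the 10x 3′ v2 chemistry. The authors deposited unnormalized UMI counts per gene and cell. Cell Ranger 3.1.0 and mm10 are named per the submitters' processing notes, and the matrix header reads 3.0.1. Annotation and calling of cells were not given in the sources used here.

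The 36 genes, the gene lists, the markers and the rules were chosen with earlier results of these data known. UMIs of gated cells were summed per library and scaled to CPM. Ratios have exact conditional binomial intervals, levels exact Poisson intervals and shares exact Clopper-Pearson intervals (95%). Calls need 1.5-fold of CPM plus 1 and 50 UMIs in the pair. Gated UMIs summed to 79851727 (D0), 64217938 (D1), 84563551 (D4) and 82157130 (D7), the smallest total of a listed gene in a library was 1579 UMIs, and at most 1.15% of a listed gene's UMIs in a library were in 1 cell. No doublet caller was run: cells with a Ptprc UMI were left out, and cells with at least 2 UMIs of markers of another class were left out in an alternative. The gene set with a mean of at least 20 CPM and the Havcr1 comparison within the S1 gate were chosen after seeing the data.

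Values in every library are given for Ppara, Ppargc1a, Cpt1a, Acadm, Ehhadh and Acsl1, for genes past 1.5-fold on any day, for the 3 largest ratios of each role at D7 and for the 8 largest among other pathway genes. Other genes named were chosen after their values were seen, and 1 list of the same pathways is not reported here. Acaa1a, Acaa1b, Fabp3 and Etfb share transcript ends with other genes (windows of 60 bases in GENCODE M21), so their counts are uncertain. Other alternatives were 25% mitochondrial UMIs, 3000 UMIs per cell, edgeR's TMM as scaling, totals without mitochondrial genes, the mean of cells' shares, a pseudocount of 10, a smaller fold, a stricter gate, cells without Havcr1 and cells of 1 segment gate. On simulated counts for D7 against D0 (12419 genes), 87 of 99 genes raised 2-fold and 73 of 101 lowered to 0.5 were called, with 0 of the unchanged genes, and 95.3% of intervals held the true ratio. These intervals cover counting error only. The simulation therefore cannot show how often unchanged genes would be called between single libraries of different animals and digestions. Tools were Python 3.11.15, numpy 2.4.6, scipy 1.17.1, pandas 2.3.3, matplotlib 3.10.9, R 4.3.3 and edgeR 4.0.16.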

Additional observations from a re-analysis of the deposited data

Results flagged for a closer look

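The D7 level stood on opposite sides of D0 in the S1 and Serpina1 gates in 22 of the 36 genes, with 17 above D0 in the S1 gate and 5 in the Serpina1 gate. No share over all genes was computed beside these 22 of 36, so the number cannot be read as particular to the list. In 3 of the 22 genes the D7 level was past the smaller fold limit (0.32 on the log2 scale) in both gates, with counting intervals that left out 1. The differences between the gates were not tested. Acaa2 was 0.577 of D0 in the S1 gate and 1.51 times D0 in the Serpina1 gate, where it had 47 UMIs at D0 and 140 at D7. Fabp3 was 0.751 of D0 in the S1 gate and 2.37 times D0 in the Serpina1 gate, from 16 and 75 UMIs. Cd36 was 1.29 times D0 in the S1 gate and 0.779 of D0 in the Serpina1 gate. In each of these 3 genes the gate with the lower level at D0 was the one above D0 at D7. The make-up of the Serpina1 gate differed too. At D7, 31 members of this gate (326 in all) also met the S1 gate, against 7 (135 in all) at D0. Its level of Slc5a12, an S1 gate gene, was 9.63 CPM at D0 and 19.8 CPM at D7, and Slc5a2 stood at 26.3 and 33.8 CPM. The part of this make-up in the ratios of the 3 genes was not tested.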

How the results depend on the processing

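Of 183 recomputed counts and differences of medians, 159 kept within 1.5 times or within their interval, and none reversed. Of 684 further values of single genes and list medians, 204 moved by more than their counting interval, and no called value changed sign. Members higher at D7 (1) were 0 at 25% mitochondrial UMIs, with TMM and with a pseudocount of 10, and 2 at the smaller fold limit. Those higher at D1 (1) were 0 with TMM, without mitochondrial genes in the total, with cells' mean shares and without cells with other markers, 2 with the gate at 4 UMIs and 8 at the smaller fold. At the smaller fold, 3 were lower at D1 (0), 3 higher at D4 (0) and 8 lower at D7 (3). The mitochondrial minus peroxisomal median at D7 was 0.09, and 0.20 without cells with other markers. In cells of 1 segment gate only, 2 were higher at D7 in the S1 gate (1). In Havcr1-positive cells, 11 were lower at D4 (4) and 9 at D7 (3) with at least 2 UMIs. Of all genes, 14.9% and 9.97% were then lower (10.8 and 9.45% at 20 CPM or more), against 6.87 and 4.66% with 1 UMI. Without cells with other markers, 7 and 7 of the members were lower. After thinning to 3000 UMIs, 4 were higher and 10 lower at D1 (2 and 4), 0 higher at D4 (1) and 5 lower at D7 (3), with 53, 308 and 325 positive cells left. Within the S1 gate 1 was higher at D7 (0). Apart from cells with at least 2 Havcr1 UMIs, no share over all genes stands beside the counts of this paragraph. Those counts cannot be read as particular to the list, and the causes were not tested.

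Without cells with other markers, Fabp3 and Agps were lower at D7, Lpl was short of a call at D7 and Amacr at D4 and D7. With a pseudocount of 10, Agps was short of a call at D7 (-0.54). No paired analysis was possible because each day has 1 library and the groups share fewer than 2 replicate numbers. With 1 library per day, day, animal, digestion and cell calling cannot be told apart, and D0 has too few Havcr1-positive cells for a comparison.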

Other observations

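Fabp3 and Ppargc1a were more abundant in thick ascending limb and in distal convoluted and connecting tubule cells than in the proximal tubule. The genes of this paragraph are examples, without a count over the list or over all genes. Among cells with at least 5 UMIs of a class's markers and none of Lrp2 or Slc34a1, Fabp3 at D0 was 444 CPM in 115 thick ascending limb cells and 476 CPM in 130 distal convoluted and connecting tubule cells, against 75.9 CPM in the proximal tubule gate. At D7 Fabp3 was 420, 524 and 57.4 CPM in the same order. Ppargc1a was 218, 164 and 39.7 CPM at D0 and 146, 229 and 37.4 CPM at D7. Slc27a2 was the opposite, at 60.4, 30.7 and 1161 CPM at D0, and so was Ehhadh, at 38.9, 8.5 and 139 CPM. Lpl was 419, 372 and 406 CPM at D0 and 249, 259 and 252 CPM at D7, and was thus lower at D7 in all 3 groups of cells.

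Of 10 lipid synthesis genes, 0, 2 and 1 were called higher and 1, 0 and 0 lower than D0 at D1, D4 and D7, against 1.62, 4.49 and 7.24% higher and 0.717, 1.01 and 1.62% lower of all genes. Their median log2 ratios were -0.14, 0.29 and 0.18, beside 0.08, 0.02 and 0.06 over all genes. Below D0 at D1 were 8 of the 10 (9 with TMM), beside 35.5% of all genes (51.9% with TMM). Above it at D4 were 10 (8 with TMM), beside 55.2% of all genes (48.3% with TMM). The number below D0 at D1 was 5 of 10 with the mean of cells' shares, and 5 without cells that held markers of another class. Scd1, the stearoyl-CoA desaturase, stood at 8.06, 2.55, 16.5 and 14.4 CPM over the 4 days. Plin2, which coats lipid droplets and was named after its values were seen, stood at 98.2, 118, 139 and 146 CPM. At D7 Plin2 was 334 CPM in Havcr1-positive and 135 CPM in negative cells, a ratio of 2.48 (2.35 to 2.61), and Scd1 was 57.0 and 11.7 CPM. The Serpina1 gate, with 11.7% of positive and 2.58% of all gated cells, held 831 of the 1181 Scd1 UMIs at D7, at 270 CPM against 5.15 in the S1 and 29.2 in the Slc7a13 gate. Within the S1 gate the ratio of positive to negative cells was 4.82 (2.86 to 7.75) for Scd1, from 21 and 105 UMIs, and 1.8 (1.56 to 2.06) for Plin2. Within the Slc7a13 gate it was 5.72 (4.83 to 6.74) for Scd1 and 1.6 (1.41 to 1.82) for Plin2. The Slc7a13 gate held 242 of the 326 Serpina1 cells at D7 and the S1 gate held 31. The part of these cells in the ratios of both gates was not tested.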
